A study of Rattus norvegicus with 12 samples.

Results

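The enzymes described here conjugate or detoxify foreign and endogenous compounds in the liver. They were taken as every probe set annotated with exactly 1 gene symbol beginning with Gsta, Gstm, Gstp, Gstt, Gsto, Gstk, Mgst, Ugt, Sult, Akr, Ces or Ephx, leaving out Akr1d1. The rule found 82 of the 8740 probe sets tested, from 48 of 4736 genes. They comprised 25 probe sets of cytosolic and kappa class glutathione transferases (GST), 3 of microsomal glutathione transferases (MGST), 14 of UDP-glucuronosyltransferases (UGT), 18 of sulfotransferases (SULT), 11 of aldo-keto reductases (AKR), 6 of carboxylesterases (CES) and 5 of epoxide hydrolases (EPHX). A further 25 probe sets with several symbols, at least 1 of them with such a prefix, were not used.

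The livers came from male Sprague-Dawley rats, and their RNA was hybridised to 12 single-colour Affymetrix arrays, 3 for each of 4 diets: 5% corn oil, 70% corn oil, 5% olive oil and 70% olive oil. All rats weighed 150 g at the start, carried a gastric cannula and were overfed by 17% of calories for 21 days by enteral infusion. The diets had equal calories, so 70% fat also meant less carbohydrate, and no group was fed chow or a normal amount. Each array held a pool of RNA from an unstated number of rats, and p-values therefore reflect how much the pools varied, which may be technical.

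Each value is the log2 distance of an array from the probe set's own median, so levels of different genes cannot be compared and the presence of liver or other cell markers cannot be judged. Errors are standard errors (SE) of a limma model over the 12 arrays, 3 per diet, and a probe set was called at a Benjamini-Hochberg adjusted p below 0.05 over all 8740 probe sets. The closest pair of arrays differed by 0.195 (log2, root mean square). One RNA quality measure, the 3'/5' index, subtracts the value of the 5' from that of the 3' control probe sets of actin and GAPDH and averages both transcripts. It ran from 0.16 to 1.5 on the 6 corn oil arrays and from -0.43 to -0.23 on the 6 olive oil arrays, which do not overlap (1.35 apart on average, two-sided p = 0.00216 by an exact permutation test). The lowest corn oil index was that of pool 2 of 70% corn oil. In whole tissue, fewer cells of a type and less RNA per cell cannot be told apart.

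Glutathione transferases join glutathione to reactive compounds, UGT enzymes attach glucuronic acid and sulfotransferases attach sulfate, which makes lipophilic compounds water-soluble so that they leave in bile or urine. Epoxide hydrolases, aldo-keto reductases and carboxylesterases convert epoxides, carbonyl compounds and esters, and several of them also act on lipids, steroids and bile acids. Many of these genes are known targets in liver of receptors and factors that sense foreign compounds, fatty acids or oxidative stress, among them the aryl hydrocarbon receptor, NRF2 and PPARA.

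RefSeq promoters (250 bases before to 50 after the start, GRCr8) matched 40 of the 48 genes, with 42 promoters. Those of the genes that the comparisons turn on and that the table holds are shown, with matches to the 3 motifs searched in capitals. Gsta4 lies at chr8:87947015-87947314 (+), Ugt2b37 at chr14:21171886-21172185 (+), Akr1c13 at chr17:70894386-70894685 (+) and Akr1c14 at chr17:71083135-71083434 (-).
Gsta4: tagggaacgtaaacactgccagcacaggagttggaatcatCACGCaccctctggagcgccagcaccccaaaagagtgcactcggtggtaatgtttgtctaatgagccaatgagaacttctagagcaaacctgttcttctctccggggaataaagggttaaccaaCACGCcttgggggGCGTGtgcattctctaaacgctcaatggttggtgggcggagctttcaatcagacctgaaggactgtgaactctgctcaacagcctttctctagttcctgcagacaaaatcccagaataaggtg
Ugt2b37: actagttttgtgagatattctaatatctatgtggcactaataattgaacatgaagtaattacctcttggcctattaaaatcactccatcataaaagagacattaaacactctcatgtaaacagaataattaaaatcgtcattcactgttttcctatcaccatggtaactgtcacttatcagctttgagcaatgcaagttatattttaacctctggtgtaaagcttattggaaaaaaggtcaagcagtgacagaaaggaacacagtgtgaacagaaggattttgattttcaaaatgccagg
Akr1c13: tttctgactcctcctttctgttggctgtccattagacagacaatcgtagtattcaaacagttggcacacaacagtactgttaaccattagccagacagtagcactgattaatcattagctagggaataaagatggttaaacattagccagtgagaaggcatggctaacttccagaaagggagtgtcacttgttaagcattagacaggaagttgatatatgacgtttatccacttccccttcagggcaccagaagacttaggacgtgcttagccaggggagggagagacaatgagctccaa
Akr1c14: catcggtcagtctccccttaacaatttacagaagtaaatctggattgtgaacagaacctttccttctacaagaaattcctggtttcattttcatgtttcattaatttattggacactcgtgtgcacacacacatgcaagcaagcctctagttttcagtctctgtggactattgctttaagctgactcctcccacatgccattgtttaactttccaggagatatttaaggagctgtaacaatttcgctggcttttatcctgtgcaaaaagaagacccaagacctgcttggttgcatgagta
The motifs were searched on both strands. The core bound by the aryl hydrocarbon receptor with ARNT, GCGTG, occurred 3 times in the Gsta4 promoter and in the promoters of 9 of 42 member entries (21.4%), against 29.7% of all 33469 promoters. The core of the antioxidant response element that NRF2 binds, TGACNNNGC, occurred in 6 of 42 (14.3%, in Ephx1, Gsta1, Gsta3, Gstm5, Gstm7 and Gstp1) against 12.1%. The direct repeat 1 element that PPARA binds, in its strict form, occurred in 0 of 42 against 0.0538%. The 3 other promoters shown hold no match, which says only that these letters are not in these windows.

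With corn oil, 4 of the 82 probe sets passed the test between fat levels (4.88%, against 2.11% of all probe sets): Ephx2 and Gsta4 rose at 70% fat (2 up, against 1.3% of all), and Gstt2 and Ugt2b37 fell (2 down, against 0.801%). The median change over the 82 was 0.08 against -0.01 over all probe sets, on the log2 scale. Their median absolute change was 0.258 against 0.120. Arrays of both fat levels did not overlap in 25 members (30.5%, against 18.9%). The 3'/5' index was 0.56 lower at 70% fat (exact permutation p = 0.2, smallest possible 0.1), and its part in these results was not tested beyond a fit with the index as a covariate, in which 0 members were called (0.458% of all probe sets). A fit on the 6 corn oil arrays alone also called 0 members (0.606%).

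Soluble epoxide hydrolase, encoded by Ephx2, converts epoxides of fatty acids to diols and is a known PPARA target. Its probe set X60328_g_at read -0.14, -1.11 and -0.88 on the 3 arrays of 5% corn oil and -0.11, 0.69 and 0.59 on those of 70% corn oil. The groups did not overlap, but the highest array of 5% corn oil and the lowest of 70% corn oil lay next to each other. The rise was 1.10 ± 0.24 on the log2 scale, or 2.14-fold (limma adjusted p = 0.0405). The other Ephx2 probe sets were at 0.33 ± 0.13, 0.58 ± 0.25 and 1.22 ± 0.35, none called. The call survived only the omission of pool 1 of 5% corn oil, pool 1 of 70% corn oil or pool 3 of 5% olive oil, and was lost on omitting each of the 9 other arrays (adjusted p up to 0.14) and after a second quantile normalization (adjusted p = 0.1).

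Ephx2 also read higher at 70% fat with olive oil, on arrays whose mean 3'/5' index was 0.018 apart. X60328_g_at was at 0.02, -0.02 and -0.02 with 5% and at 1.01, 0.61 and 0.70 with 70% olive oil, and X65083cds_at was at 0.03, 0.04 and -0.03 against 0.52, 0.59 and 0.58. In all 4 Ephx2 probe sets the olive oil arrays of the fat levels did not overlap (15 of the 82 members, 18.3%, against 19.8% of all probe sets), with differences of 0.55 to 0.78. None passed in the shared fit (limma adjusted p = 0.0726 to 0.767). In the limma fit on the 6 olive oil arrays alone all 4 passed (adjusted p = 0.0113 to 0.028), among 5 members called there (1.11% of all probe sets). In the mean of the fat effects with both oils, 2 Ephx2 probe sets rose: X60328_g_at by 0.94 ± 0.17 (limma adjusted p = 0.0122) and rc_AI104882_s_at by 0.48 ± 0.10 (limma adjusted p = 0.0197). The call of rc_AI104882_s_at was lost without pool 1 of 5% olive oil or pool 1 or 3 of 70% olive oil (adjusted p up to 0.065), and that of X60328_g_at held without each array. After a second quantile normalization rc_AI104882_s_at was not called in this mean (adjusted p = 0.0542). With the index as a covariate both calls were lost (adjusted p = 0.0978 and 0.0521 for X60328_g_at). Ephx1, the microsomal epoxide hydrolase that acts on foreign epoxides, was at 0.10 ± 0.19 with corn oil and 0.15 ± 0.19 with olive oil and was not called.

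**Figure D1:**
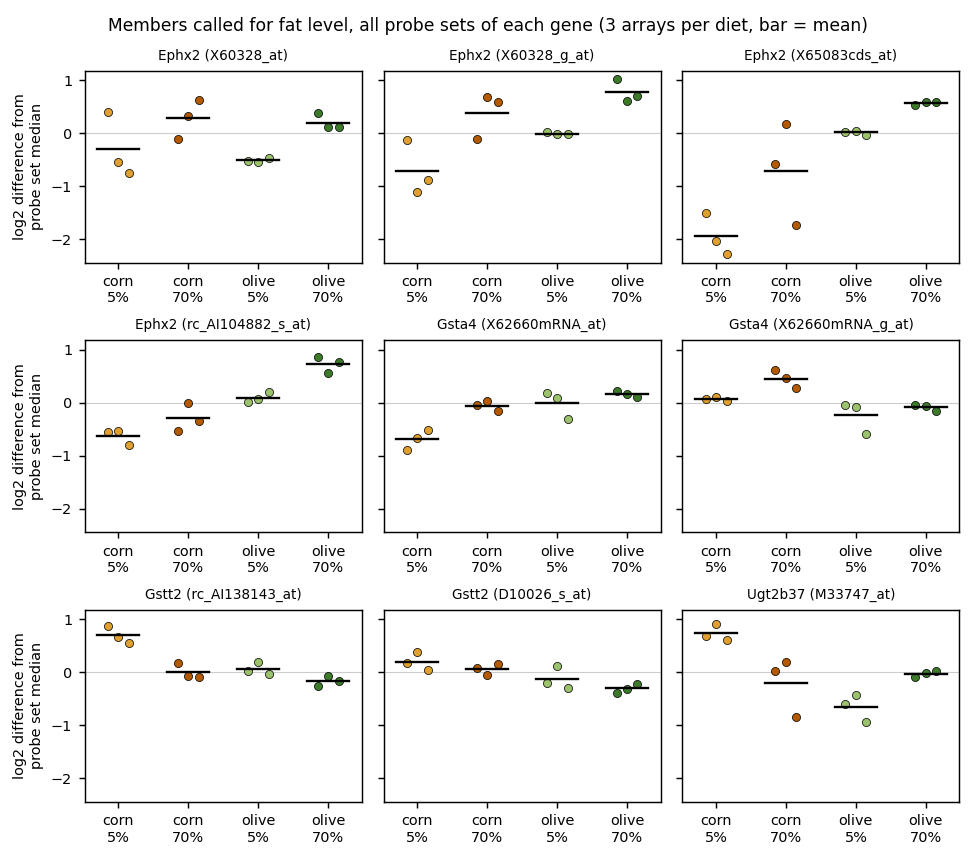
Values of the 9 probe sets of the genes called for fat level, as log2 differences from the probe set's median (y axis), by diet (x axis); points are single arrays and bars are means of 3. Ephx2 arrays of 70% olive oil lie above those of 5% olive oil in all 4 probe sets, and the 5% corn oil arrays of Gstt2 rc_AI138143_at and Ugt2b37 lie above all other arrays.

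Among the transferases, Gsta4, which conjugates aldehydes formed by lipid peroxidation, rose with corn oil in 1 of its 2 probe sets. X62660mRNA_at read -0.88, -0.67 and -0.51 with 5% corn oil and -0.04, 0.04 and -0.16 with 70%. The groups did not overlap and the rise was 0.64 ± 0.13 (limma adjusted p = 0.0302). The other probe set, X62660mRNA_g_at, was at 0.38 ± 0.14 and was not called, although its arrays did not overlap either. The call was lost on omitting any of 5 arrays: 5% corn oil pools 1 and 2, 70% corn oil pool 2, and 70% olive oil pools 1 and 2 (adjusted p up to 0.114). It was also lost after a second quantile normalization (adjusted p = 0.18), with trend and robust moderation (0.0981) and in the mean of both probe sets (0.0519). With olive oil the probe sets were at 0.18 ± 0.13 and 0.14 ± 0.14, neither called.

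Gstt2, a theta class transferase, fell with corn oil: rc_AI138143_at read 0.88, 0.67 and 0.55 with 5% and 0.17, -0.07 and -0.09 with 70% corn oil. The groups did not overlap and the fall was -0.69 ± 0.11 (1.62-fold, limma adjusted p = 0.0071), and the call held without each array (adjusted p up to 0.0341). It was lost with trend and robust moderation (adjusted p = 0.0523) and in the mean of both Gstt2 probe sets (-0.41, adjusted p = 0.0532). With olive oil the same probe set was at -0.23 ± 0.11, not called, and its arrays did not overlap. The mean over both oils fell by 0.46 ± 0.08 (limma adjusted p = 0.00752). This call in the mean was lost with trend and robust moderation. With the index as a covariate Gstt2 rc_AI138143_at was the 1 member called in that mean (1.41% of all probe sets). The second Gstt2 probe set, D10026_s_at, was at -0.13 ± 0.12 and -0.18 ± 0.12, and Gstt1, its neighbour in the class, at -0.05 ± 0.13 and -0.11 ± 0.13, none called.

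Among alpha and mu class transferases, 7 of 8 Gsta and 8 of 8 Gstm probe sets were above 0 with corn oil, against 48.3% of all. They come from 3 and 4 genes, so the probe sets are not independent. Gsta4 X62660mRNA_at alone passed, and the medians were 0.44 and 0.21. Gsta3 S82820mRNA_s_at was at 0.82 ± 0.33 and S72506_s_at at 0.73 ± 0.32, but pool 1 of 70% corn oil carried both, at 1.57 and 1.68, with the 5 other corn oil arrays between -0.31 and 0.42. Gstm7 E01415cds_s_at was at 0.65 ± 0.23. Gstm7 was at 0.66 ± 0.23 with olive oil and was not called in the mean of both oils (limma adjusted p = 0.0611). Pi class Gstp1 was at 0.05 ± 0.08 and -0.08 ± 0.10, and omega class Gsto1 at 0.39 ± 0.22 and -0.03 ± 0.12. Kappa class Gstk1, of mitochondria and peroxisomes, was at 0.10 ± 0.10 and -0.49 ± 0.21. The microsomal transferases were not called in any comparison: Mgst1, Mgst2 and Mgst3 were at -0.10 ± 0.08, -0.06 ± 0.10 and 0.14 ± 0.31 with corn oil, and with olive oil Mgst2 was at -0.38 ± 0.10 on arrays that did not overlap (adjusted p = 0.223).

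Of the 14 UGT probe sets 1 fell with corn oil, Ugt2b37, of the 2B subfamily. It read 0.69, 0.90 and 0.60 with 5% and 0.03, 0.19 and -0.84 with 70% corn oil. The groups did not overlap, and the fall was -0.94 ± 0.22 (limma adjusted p = 0.0499). Of the 12 fits that omitted an array, 3 kept the call (those omitting 5% olive oil pool 3, or 70% corn oil pool 1 or 2), and the other 9 did not (adjusted p up to 0.156). Without pool 3 of 70% corn oil, its lowest array of that diet, the value was -0.62, and after a second quantile normalization the call was lost (adjusted p = 0.114), as with each array centred (0.0649). With olive oil it was at -0.59, -0.42 and -0.93 with 5% and -0.09, -0.02 and 0.02 with 70%, a difference of 0.62 ± 0.22 in the other direction, not called (adjusted p = 0.414; 0.87 and adjusted p = 0.0273 after a second quantile normalization). Of the UGT probe sets, 3 of 14 were above 0 with corn oil (against 48.3% of all) and 10 of 14 with olive oil (against 59.2%). Their medians were -0.14 and 0.08, against -0.01 and 0.03 over all probe sets. Ugt2b35 U06273_i_at was at -0.93 ± 0.30 with corn oil and 0.20 ± 0.30 with olive oil, not called.

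No SULT, AKR or CES probe set passed limma between fat levels; with corn oil 6 of 18, 3 of 11 and 1 of 6 had an unadjusted p below 0.05 (33.3%, 27.3% and 16.7%, against 18.8% of all probe sets), and with olive oil 0, 1 and 1 (0%, 9.09% and 16.7%, against 8.46%). Phenol sulfotransferase Sult1a1 (L19998_at) was at 0.70, 0.42 and 0.52 with 5% and 0.04, -0.04 and -0.34 with 70% corn oil (-0.66 ± 0.16, limma adjusted p = 0.0587). Sult2a6 X63410cds_f_at was at 1.18 ± 0.29 (limma adjusted p = 0.0545). Both had arrays that did not overlap. Probe sets ending in _f_at match a family of similar transcripts, so signals of the Sult2a genes, which sulfate steroids and bile acids, cannot be told apart with certainty. The 3 Sult2a6 probe sets ran from 0.32 to 1.18 with corn oil and from -0.01 to 0.46 with olive oil. Sult1b1, which acts on thyroid hormones, was at -0.45 ± 0.29 and -0.58 ± 0.29. In the aldo-keto reductases the largest sizes were Akr1c14 S35751_f_at at 0.96 ± 0.34 and Akr1c13 at -0.82 ± 0.32 with corn oil, and in the esterases Ces1e at -0.69 ± 0.29. Akr7a3, an aflatoxin aldehyde reductase, was at -0.26 ± 0.31 and Ces2e at 0.46 ± 1.02, the widest error of the members.

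With olive oil 0 of the 82 probe sets passed by limma between fat levels (0.435% of all probe sets, 0.126% up and 0.309% down), and 8 had an unadjusted p below 0.05 (9.76%, against 8.46%). The corn and olive fat effects share no arrays: over the 82 members they correlated with Pearson r = 0.36 and Spearman rho = 0.38, a description over probe sets of which several share a gene, and 51 had the same sign (62.2%, against 52.8% of all probe sets). In the mean of both fat effects, 4 members were called (4.88%, against 2.28%). The 3 that rose (against 1.25% of all) were the 2 Ephx2 probe sets and Gsta4 X62660mRNA_at (0.41 ± 0.09, limma adjusted p = 0.0404), and the 1 that fell (against 1.03%) was Gstt2. The Gsta4 call in this mean was kept without pool 3 of 5% corn oil, pool 3 of 70% corn oil or pool 1 of 5% olive oil and lost without each of the 9 other arrays (adjusted p up to 0.116) and in each of the 6 other settings tried. The test of the difference between the oils' fat effects called 0 members and 0 of all 8740 probe sets by limma, and 7 members had an unadjusted p below 0.05 (8.54%, against 11.8%). Ugt2b37 had the smallest adjusted p of the members, with a difference of -1.56 ± 0.31 (limma adjusted p = 0.255), and Akr1c13 was at -1.37 ± 0.45. A fat effect that passed with 1 oil was therefore not shown to differ between the oils.

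**Figure D2:**
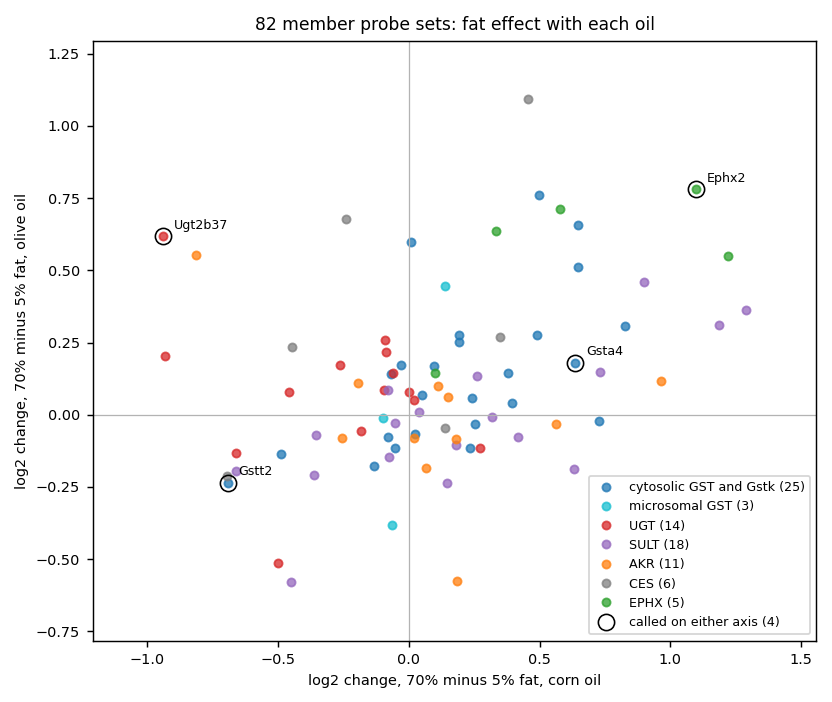
Change from 5% to 70% fat with corn oil (x axis) and olive oil (y axis), both in log2, for each of the 82 probe sets, coloured by enzyme family; circles mark the 4 called on either axis. All 5 EPHX probe sets lie above 0 on both axes, and Ugt2b37 lies at -0.94 on the corn oil axis and 0.62 on the olive oil axis.

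Between the oils at 5% fat, 21 of 82 probe sets passed (25.6%, against 19.5% of all probe sets), 8 higher (against 10.1%) and 13 lower (against 9.36%) with corn oil, and 33 had arrays that did not overlap (40.2%, against 41.3%). At 70% fat 8 passed (9.76%, against 8.51%), 1 higher (against 3.96%) and 7 lower (against 4.55%) with corn oil, and 16 had arrays that did not overlap (19.5%, against 27.2%). Neither total is read as particular to these enzymes. On these arrays the 3'/5' index was 1.64 higher with corn oil at 5% fat and 1.06 higher at 70% fat (exact permutation p = 0.1 each, the smallest possible). With the index as a covariate 0 of 8740 probe sets passed in either oil comparison, and the oil and the index cannot be told apart in this design.

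The aldo-keto reductases had calls in 6 of 11 probe sets at 5% fat (54.5%, against 19.5% of all probe sets), 2 higher (against 10.1%) and 4 lower (against 9.36%) with corn oil. Akr1c14, a 3-alpha-hydroxysteroid dehydrogenase of bile acid and steroid metabolism, had the largest difference: S35751_f_at read -2.47, -2.31 and -1.64 with 5% corn oil and 0.70, 0.45 and 0.29 with 5% olive oil. At 70% fat it read -1.25, -0.29 and -2.00 with corn oil and 0.52, 0.41 and 0.85 with olive oil. All 6 corn oil arrays lay below all 6 olive oil arrays, at -2.62 ± 0.34 (6.15-fold, limma adjusted p = 0.000416) and -1.77 ± 0.34 (limma adjusted p = 0.0101). With the index as a covariate these differences were -0.07 ± 0.49 and -0.13 ± 0.35, not called. As an _f_at probe set, S35751_f_at can match several similar transcripts, so its signal cannot be assigned to Akr1c14 with certainty. The other Akr1c14 probe set, D17310_s_at, was at -0.75 ± 0.18 and -0.74 ± 0.18 (limma adjusted p = 0.0121 and 0.0273). Its call at 5% fat was lost without pool 1 of 5% olive oil (adjusted p = 0.0517). That at 70% fat was lost without any of 4 arrays (pool 3 of 70% corn oil and each of the 70% olive oil pools). Of the 1C neighbours on chromosome 17, Akr1c13 was higher with 5% corn oil, by 1.49 ± 0.32 (limma adjusted p = 0.00646), and Akr1c3 E06822cds_s_at lower, at -1.02 ± 0.22 (limma adjusted p = 0.00645). The other Akr1c3 probe set, L32601_s_at, was at 0.16 ± 0.18, and the mean of both was not called (-0.43, adjusted p = 0.0972). Akr1b1, the aldose reductase that makes sorbitol, was higher by 0.47 ± 0.11 in M60322_at and at 0.04 ± 0.09 in M60322_g_at, and Akr1a1, the aldehyde reductase, was lower, at -0.51 ± 0.15 (limma adjusted p = 0.0299). That call was lost on omitting 5% corn oil pool 1 or 2 or any of the 3 pools of 5% olive oil (adjusted p up to 0.122).

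**Figure D3:**
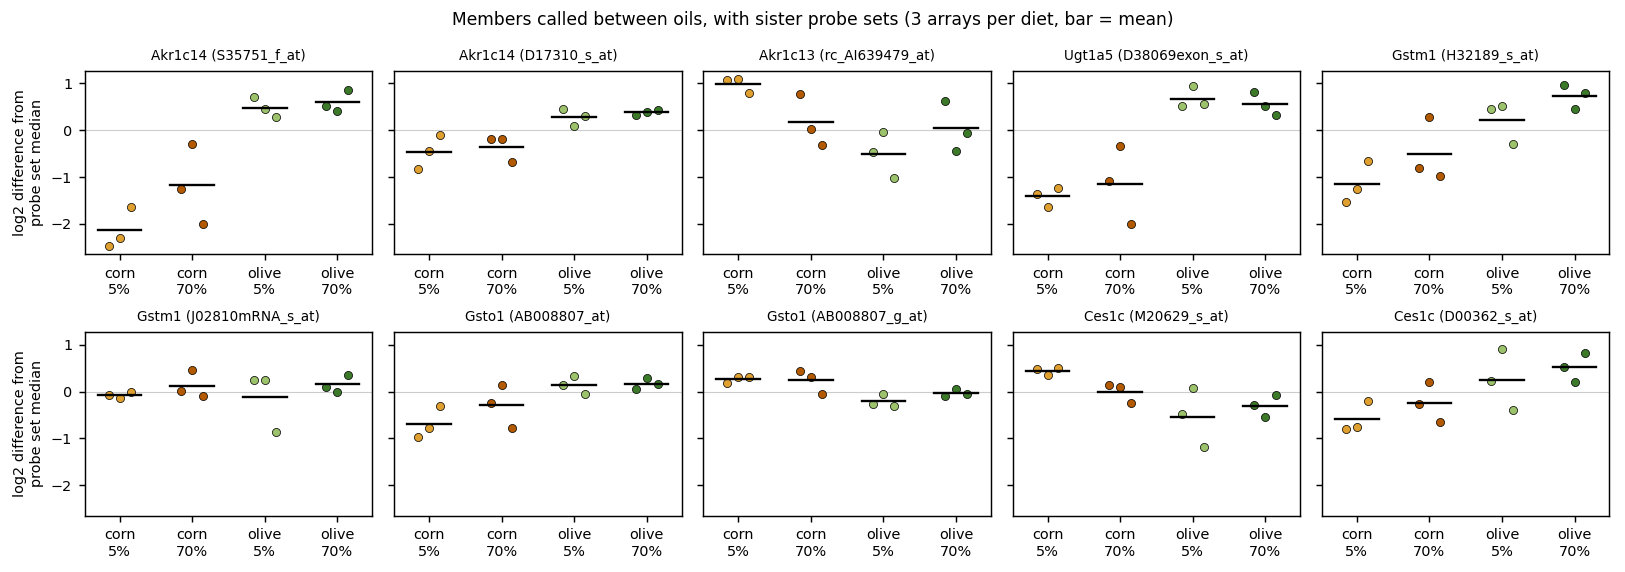
Values of 10 probe sets of genes called between the oils, as log2 differences from the probe set's median (y axis), by diet (x axis); points are single arrays and bars are means of 3. Corn oil arrays of Akr1c14 S35751_f_at and Ugt1a5 lie below all olive oil arrays, and the probe sets of Gsto1, and those of Ces1c, lie on opposite sides.

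Ugt1a5, 1 of the UGT1A isoforms that share exons, read -1.36, -1.64 and -1.24 with 5% corn oil and 0.52, 0.94 and 0.55 with 5% olive oil. At 70% fat it read -1.09, -0.33 and -2.00 against 0.81, 0.52 and 0.33. All corn oil arrays lay below all olive oil arrays, at -2.08 ± 0.31 (4.24-fold, limma adjusted p = 0.000871) and -1.70 ± 0.31 (3.24-fold, limma adjusted p = 0.00897). Its calls held without each array. With the index as a covariate the Ugt1a5 differences were -0.23 ± 0.64 at 5% and -0.50 ± 0.45 at 70% fat, not called. In contrast Ugt2b37 was higher with 5% corn oil, by 1.38 ± 0.22 (limma adjusted p = 0.00119), and at -0.18 ± 0.22 at 70% fat, not called. The 5% corn oil arrays enter this comparison and the fat comparison above, in which Ugt2b37 fell.

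Ephx2 was lower with corn oil in 2 of 4 probe sets at both fat levels (against 9.36% of all probe sets at 5% and 4.55% at 70% fat). The mean of its probe sets was called at 5% fat (-0.79, limma adjusted p = 0.0119) but not at 70% fat (-0.65, limma adjusted p = 0.0533). X65083cds_at read -1.50, -2.03 and -2.28 with 5% corn oil against 0.03, 0.04 and -0.03 with 5% olive oil (-1.95 ± 0.35, limma adjusted p = 0.00231), and was at -1.28 ± 0.35 at 70% fat (limma adjusted p = 0.0432). The 70% arrays read -0.57, 0.16 and -1.73 with corn oil and 0.52, 0.59 and 0.58 with olive oil, and the value was -0.77 without pool 3 and -1.72 without pool 2 of 70% corn oil. At 70% fat omitting 1 of 3 arrays (5% corn oil pool 1 or 3, 70% corn oil pool 2) left the call in place, and omitting each of the other 9 arrays removed it (adjusted p up to 0.119). The probe set rc_AI104882_s_at was at -0.72 ± 0.13 (limma adjusted p = 0.00305) and -1.02 ± 0.13 (limma adjusted p = 0.00239), calls that held without each array. With the index as a covariate it was at -0.36 ± 0.36 and -0.79 ± 0.25, not called. The same gene's X60328_at was at 0.21 ± 0.25 and 0.08 ± 0.25, not called, and its X60328_g_at at -0.70 ± 0.24 and -0.39 ± 0.24.

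Among the transferases 7 of 25 probe sets passed at 5% fat (28%, against 19.5% of all). Mu class Gstm1 H32189_s_at was lower with corn oil at both fat levels (-1.37 ± 0.33 and -1.23 ± 0.33), with its J02810mRNA_s_at at 0.05 ± 0.25 and -0.03 ± 0.25 and X04229cds_s_at at -0.67 ± 0.28 and -0.72 ± 0.28, not called. Gsto1, which reduces dehydroascorbate and methylated arsenic, had both probe sets past the test on opposite sides: AB008807_at at -0.82 ± 0.22 (limma adjusted p = 0.0196) and AB008807_g_at at 0.47 ± 0.12 (limma adjusted p = 0.0155). The Gsta4 probe sets passed at different fat levels and on opposite sides, with X62660mRNA_at lower with corn oil at 5% fat (-0.68 ± 0.13, limma adjusted p = 0.00353) and X62660mRNA_g_at higher at 70% fat (0.54 ± 0.14, limma adjusted p = 0.0306). Alpha class Gsta1 X78848cds_f_at was lower, at -0.74 ± 0.17, with K01932_f_at at 0.17 ± 0.16 and S72505_f_at at -0.03 ± 0.15, not called. Pi class Gstp1 X02904cds_s_at was lower at both levels (-0.27 ± 0.08 and -0.29 ± 0.08), or 1.20- and 1.22-fold, and its rc_AI012589_s_at was at 0.05 ± 0.10 at both levels, not called. Gstt2 rc_AI138143_at was higher with 5% corn oil by 0.64 ± 0.11 (limma adjusted p = 0.00181). The 5% corn oil arrays also enter the fat comparison above, in which Gstt2 rc_AI138143_at fell and Gsta4 X62660mRNA_at rose, so these results are not independent. Calls of Gsto1 AB008807_at were lost without pools 1 or 2 of 5% corn oil or of 5% olive oil, those of AB008807_g_at without pool 2 of 5% corn oil or pool 1 or 3 of 5% olive oil, and that of Gsta4 at 70% fat without pool 1 of 70% corn oil or any pool of 70% olive oil. Those of Gstm1 were lost at 5% fat without pool 1 of 5% corn oil or pool 2 of 5% olive oil, and at 70% fat without any of 6 arrays (pool 2 of 5% corn oil, pools 1 and 3 of 70% corn oil and all pools of 70% olive oil, adjusted p up to 0.14). The Gstp1 call at 5% fat was lost on omitting 5% corn oil pool 1 or 2 or any pool of 5% olive oil, and at 70% fat it was kept only where the omitted array was 1 of 3 (5% corn oil pool 1 or 3, 70% corn oil pool 2).

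Of the remaining families, CES had calls in 2 of 6 probe sets at 5% fat (33.3%) and SULT in 2 of 18 (11.1%), against 19.5% of all. MGST had 0 of 3. Carboxylesterases Ces1c M20629_s_at and Ces1e were higher with 5% corn oil by 0.98 ± 0.25 and 1.01 ± 0.29 (limma adjusted p = 0.0149 and 0.0303; Ces1c 0.65 without pool 3 of 5% olive oil), while Ces1c D00362_s_at was at -0.83 ± 0.31, not called. Ces1d, which hydrolyses triacylglycerol in liver, was at 0.88 ± 0.30 (limma adjusted p = 0.0633). Of the sulfotransferases, Sult1a1 L19998_at was higher by 0.62 ± 0.16 and Sult2a1 D14988_f_at lower, at -1.07 ± 0.31 (limma adjusted p = 0.0188 and 0.0281). The second Sult1a1 probe set was at -0.22 ± 0.17, and the 3 other Sult2a1 probe sets ran from -0.39 to -0.02, none called. The calls of Ces1e, Sult1a1 and Sult2a1 were each lost without pool 1 of 5% corn oil or pool 3 of 5% olive oil; that of Ces1e was also lost without pool 2 of 5% corn oil or pool 1 of 5% olive oil, and those of Sult1a1 and Sult2a1 without pool 2 of 5% olive oil (adjusted p up to 0.115). Gstk1 S83436_i_at was at -0.33 ± 0.10 at 70% fat (limma adjusted p = 0.071) and MGST probe sets between -0.36 and 0.09 in both oil comparisons, not called.

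**Figure D4:**
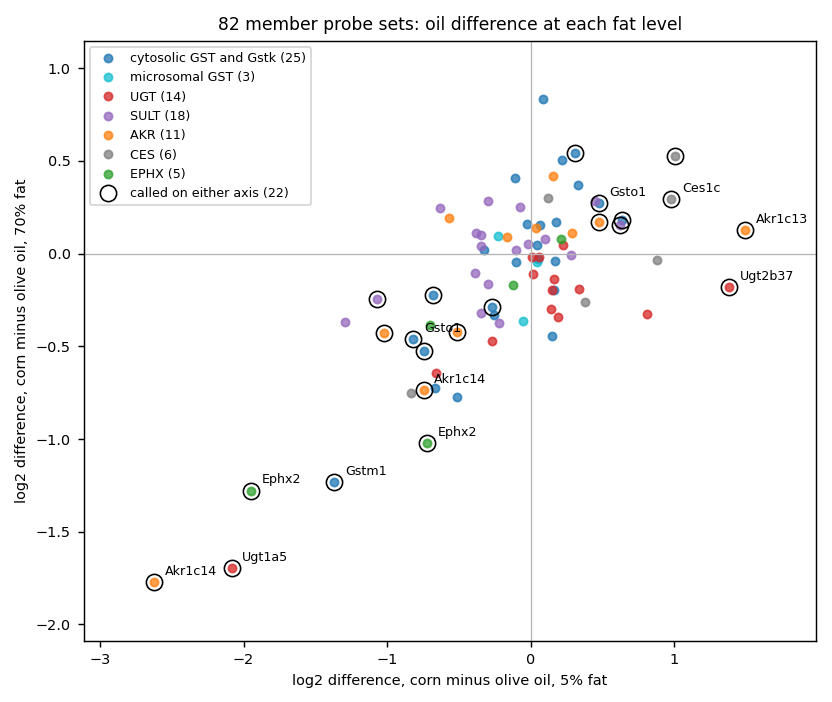
Difference between corn and olive oil at 5% fat (x axis) and 70% fat (y axis), both in log2, for each of the 82 probe sets, coloured by enzyme family; circles mark the 22 called on either axis. Akr1c14 S35751_f_at, Ugt1a5, Ephx2 X65083cds_at and Gstm1 H32189_s_at lie below -1 on both axes, and Akr1c13 and Ugt2b37 lie above 1 on the 5% axis and between -0.18 and 0.13 on the 70% axis.

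The oil comparisons at 5% and 70% fat share no arrays. Over the 82 members they correlated with r = 0.72 and rho = 0.58, as over all probe sets (r = 0.72, rho = 0.56), and 50 had the same sign (61%, against 67.6%). Within a gene, however, probe sets often differed. At 5% fat 16 of the 24 member genes with more than 1 probe set had probe sets on both sides of 0 (66.7%, against 50.9% of the 1565 such genes), and the median range between probe sets of a gene was 0.746 against 0.318. For fat level with corn oil the range was 0.465 against 0.188 and 10 of 24 had both signs (41.7%, against 47%). One member gene of 24 was called in both directions at 5% fat, Gsto1 (4.17%, against 3.45%). With the probe sets of a gene averaged, 8 of the 48 genes passed limma at 5% fat (16.9% of all genes) and 2 at 70% fat (6.93%). Genes called in a probe set but not in their mean were Akr1b1, Akr1c3, Ces1c, Gsta1, Gsta4, Gstm1, Gsto1, Gstp1, Sult1a1 and Sult2a1 at 5% fat and Ephx2, Gsta4, Gstm1 and Gstp1 at 70% fat.

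**Figure D5:**
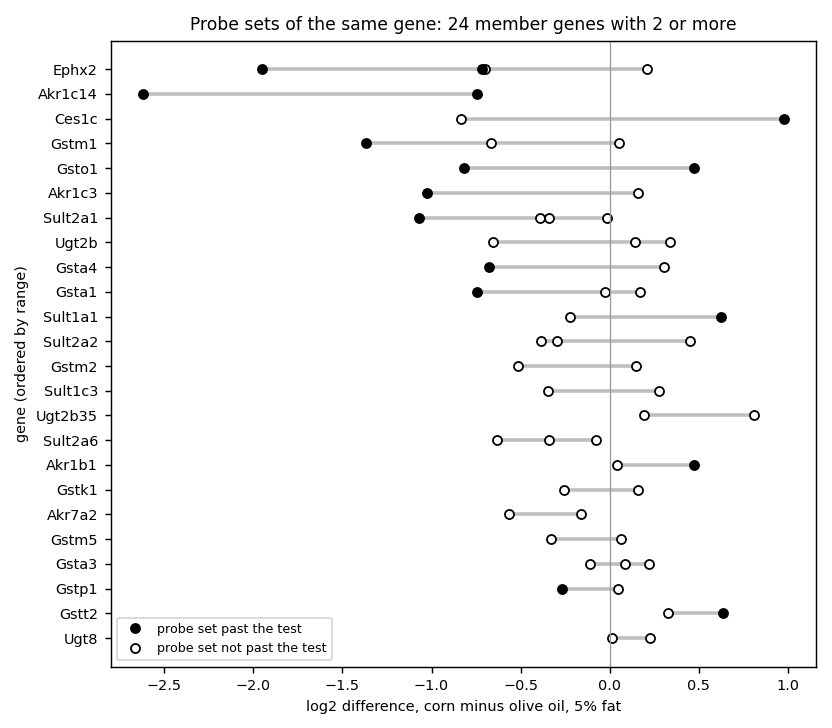
Difference between corn and olive oil at 5% fat (x axis, log2) for each probe set of the 24 member genes with more than 1, ordered by the range within the gene; filled points are probe sets past the test and grey lines span the range. Ephx2 spans -1.95 to 0.21, and both Gsto1 probe sets are filled on opposite sides of 0.

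Other genes of the pathway were taken from lists chosen with earlier results of these data known, so their counts are a description only. The index genes of the xenosensors are known targets of receptors for foreign compounds and fatty acids, whose activity was not measured. Of the 7 index genes measured (15 probe sets), 4 probe sets rose with corn oil (against 1.3% of all probe sets). With olive oil 3 rose (against 0.126%), and 8 in the mean of both (against 1.25%). These rises were in Cyp2b2, Cyp4a1 and Cyp3a23-3a1, with Cyp4a1 X07259cds_s_at at 1.94 ± 0.16 and 1.06 ± 0.16. The other index genes were not called for fat level. With corn and olive oil Cyp1a1 was at -0.16 and 0.04, Cyp3a2 at -0.03 and 0.63 and Cyp3a9 at -0.90 and -0.004. Cyp1a2 probe sets were at 0.29 to 0.76 with corn oil and -0.01 to 0.18 with olive oil. The medians of the 15 probe sets were 0.76 and 1.03, against -0.01 and 0.03 over all probe sets. Of 11 regulators (22 probe sets), among them Ahr, Nfe2l2, Ppara and Rxra, 0 passed limma for fat level in either oil. The unadjusted p was below 0.05 in 4 with corn and 3 with olive oil (against 18.8% and 8.46% of all). At 5% fat 1 of the 22 was higher with corn oil (Nr3c1, against 10.1% of all). Those lower were 3, 1 each of Cebpa, Cebpb and Hnf4a (against 9.36%). Other probe sets of these genes were not called: Nr3c1 at 0.25 and 0.23, Cebpa at -0.05, Cebpb at 0.10 and Hnf4a at -0.34 and -0.36. Of 15 genes of cosubstrate supply and other conjugation (34 probe sets), Nat1, an arylamine acetyltransferase, fell in 1 probe set with 70% corn oil (-0.68 ± 0.15, against 0.801% of all). The other Nat1 probe sets were at -0.45 to -0.002, not called. At 5% fat 1 of the 34 probe sets was higher (against 10.1% of all) and 8 lower (against 9.36%) with corn oil. Those lower included Gclc, the catalytic subunit of the first enzyme of glutathione synthesis, at -2.11 ± 0.35, and Gsr, which recycles glutathione, in 2 of 3 probe sets (U73174_at at -1.33 ± 0.19). The other genes of glutathione synthesis were not called, with Gclm probe sets at 0.04 to 0.86 and Gss at -0.21 ± 0.08 and 0.07 ± 0.09. Of 10 transporters (10 probe sets), Slco1a4, which takes up organic anions, rose in the mean of both oils (1.15 ± 0.21, against 1.25% of all up). At 5% fat Slc10a1 was higher and Slco1a1 lower with corn oil, 1 of 10 each way (against 10.1% and 9.36% of all).

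Marker lists were counted in the oil comparison at 5% fat, in which 10.1% of all probe sets were higher and 9.36% lower with corn oil. Of 15 hepatocyte probe sets 5 were lower with 5% corn oil (in Alb, Apoa1, Cps1 and Serpina1), with a median of -0.07 over the list. The largest was Cps1 M11710cds_s_at, at -2.52. Other probe sets of these genes were not called, with Alb at -0.04 to 0.17 and Cps1 at 0.05 and 0.14. Serpina1 rc_AI010453_at was at 0.18 and Apoa1 M00001_i_at at -0.44. The hepatocyte list means were -0.31 to -0.20 on the 5% corn oil arrays and 0.04 to 0.11 on the 5% olive oil arrays. Of 10 stellate cell probe sets 2 were higher, Col1a1 M27207mRNA_s_at by 2.29 and Col3a1 X70369_s_at by 0.98, while the 3 other Col1a1 probe sets (0.18 to 0.22) and the other of Col3a1 (-0.16) were not called. The stellate list means overlapped, at 0.01 to 0.24 against -0.36 to 0.02. Cholangiocyte probe sets had 2 of 5 higher and 1 lower, macrophage probe sets 1 of 8 each way and endothelial probe sets 1 of 4 each way. Of 14 pericentral hepatocyte probe sets 2 were higher (in Cyp7a1 and Glul) and 4 lower (in Cyp1a2, Cyp2e1 and Oat). Of 12 periportal hepatocyte probe sets 0 were higher and 2 lower (in Cps1 and Hal). Other probe sets of these genes were not called. The pericentral list means were -0.41 to -0.11 with 5% corn oil and -0.10 to 0.19 with 5% olive oil. Those of the periportal list were -0.28 to -0.24 and -0.05 to 0.78. Between fat levels with corn oil (1.3% of all up, 0.801% down) 1 of 15 hepatocyte probe sets rose, Alb rc_AA860062_g_at by 0.59. The other Alb probe sets were at 0.01 to 0.10, not called. Of 8 macrophage probe sets 1 fell, Ptprc K03039mRNA_s_at at -0.94, with the other Ptprc probe sets at 0.08 and -0.12, not called. Of 14 pericentral hepatocyte probe sets 2 rose, both of Cyp2e1. Those of Glul (-0.57 to -0.15) and Cyp7a1 (-1.19 and -0.29) were below 0, not called. Of 12 periportal hepatocyte probe sets 0 were called. In the mean of both oils 3 of the 14 pericentral probe sets rose and 3 fell (1.25% and 1.03% of all). The part of these markers in the members' results was not tested.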

How the data were processed

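The authors deposited log2 expression values for 8799 probe sets on 12 arrays; the tools named in the submitters' processing notes are GCOS and RMA, versions not given. Base 2 was assumed, since the table does not state it. The median across arrays was 0, within 1e-06, in 100% of probe sets, so no level is known, no filter on low values was possible and signal over background cannot be judged. Array medians ran from -0.0268 to 0.0622. The 59 array controls were left out. The platform annotation gave 1 symbol to 7006 probe sets, several to 308 and none here to 1426; all 82 member symbols were unchanged in GRCr8. The 2 Akr1d1 probe sets were left out. There were 0 columns of other samples.

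Tests used limma 3.58.1 in R 4.3.3: 1 mean per diet, all 12 arrays sharing the spread (8 residual degrees of freedom), eBayes without trend, two-sided p-values, Benjamini-Hochberg adjustment over 8740 probe sets within a comparison, threshold 0.05. The code was tested on simulated data. Members and gene lists were chosen with earlier results of these data known. Named members are those called with arrays that did not overlap, the smallest p of a family without calls, and a list of genes always looked up; others in the text were chosen after their values were seen. The alternatives tried were centring of arrays, a second quantile normalization, the pool number as a block, the 3'/5' index as a covariate, trend with robust moderation, the arrays of both groups alone, 1 value per gene (mean of its probe sets) and leaving out each array. Probe sets ending in _f_at (14 members) or _s_at (24 members) can match several transcripts. The number of arrays limits the precision.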

Additional observations from a re-analysis of the deposited data

How the results depend on the processing

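Counts of called members moved with the processing, and the cause was not tested. With corn oil, fat level gave 4 calls, 1 after a second quantile normalization, 0 with the 3'/5' index in the model, 0 with the arrays of both groups alone and 2 at 1 value per gene; leaving out 1 array gave 1 to 7, with 1 without pool 2 of 5% corn oil or pool 1 or 2 of 70% olive oil, 2 without pool 1 or 2 of 5% olive oil or pool 3 of 70% olive oil, and 7 without pool 3 of 5% olive oil. With olive oil the 0 calls became 1 after quantile normalization (Ugt2b37), 1 with trend and robust moderation (Ephx2) and 5 with the olive oil arrays alone; leaving out 1 array gave 0 to 1 (1 without pool 1 or 2 of 70% corn oil). The mean of both fat effects gave 4, 1 with the index, 2 with trend and robust moderation, 2 per gene, and 2 to 6 without 1 array (2 without pool 1 or 3 of 70% olive oil). Oils at 70% fat gave 8, 0 with the index, 5 with the arrays of both groups alone, 2 per gene, and 3 to 13 without 1 array (3 without any pool of 70% olive oil, 4 without pool 1 and 13 without pool 2 of 70% corn oil, 5 without pool 2 of 5% corn oil). Oils at 5% fat gave 21, 0 with the index, 8 per gene, and 15 to 24 without 1 array. The difference between the fat effects gave 0 in all settings and 0 to 0 without 1 array. The replicate numbers share only a number: same-numbered arrays correlated between -0.194 and 0.232, and 11 of 36 best matches shared the number (1 of 12 arrays matched its own number best in all groups). With the pool number as a replicate block the counts were 5, 0, 5, 6, 24 and 0 in the order above. The block ended the calls of Ephx2 X60328_g_at with corn oil (adjusted p = 0.0568), Gsta4 in the mean (0.0622) and Gstm1 H32189_s_at and Gstp1 at 70% fat (0.0553 and 0.0654), and it added Sult1a1 and Sult2a6 with corn oil (0.0369 and 0.0228), Gstm7 and Sult2a6 in the mean (0.0267 and 0.0281), and Ces1d, Ugt2b35 and Gstm5 at 5% fat (0.0237, 0.0465 and 0.0301). Signs of called members turned with the index as a covariate for Gstm1 H32189_s_at (0.10 at 70%, 0.69 at 5% fat), Akr1a1 (0.45), Akr1b1 M60322_at (-0.090), Akr1c14 D17310_s_at (0.15), Akr1c3 E06822cds_s_at (0.30) and Gsto1 AB008807_at (0.67), and at 1 value per gene for Gsto1 (-0.17).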
